A study of Homo sapiens with 10 samples.

Results

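A set of 10 genes of cellular iron handling was followed through 10 RNA-seq libraries of K562 cells. They are the uptake genes TFRC, STEAP3, SLC11A2 and SLC25A37, the ferritin genes FTL and FTH1, the exporter SLC40A1, the heme-degrading enzyme HMOX1, and IREB2 and ACO1, which encode the iron regulatory proteins. The list was fixed by gene name, with earlier results of these data known. All 10 are among the 20535 genes listed in the files, and 9 of them, all but HMOX1, are among the 10127 genes whose mean was at least 1 TPM and which entered the tests. TPM gives how much of all RNA molecules in a library a gene contributes, after correction for transcript length, scaled to a fixed total.

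K562 is an erythroleukemia line that makes embryonic and fetal hemoglobin, and in these cells the HS2 enhancer of the β-globin locus control region was targeted. In 4 groups all 4 HS2 sgRNAs were pooled. Single effectors were dCas9-KRAB, called K, and dCas9-LSD1, called L. Dual effectors were enCRISPRi-LK, which is dCas9-LSD1 with MCP-KRAB, and enCRISPRi-KL, which is dCas9-KRAB with MCP-LSD1. Here KRAB is a repressor domain, LSD1 is a histone demethylase, and MCP is a coat protein that binds hairpins in the sgRNA. The control group carried sgGal4, which the paper describes as nontargeting, and the labels do not say which effectors this group expressed. Each group had 2 libraries. According to the methods, the populations were sorted for the fluorescent markers of their vectors and the dCas9 fusions were induced with doxycycline, and no untreated parental library was used here. The paper counts the libraries of a group as separate experiments, and neither it nor the labels say whether these were separate cultures, so the p-values measure the spread between these libraries, which may be technical.

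Iron enters erythroid cells as iron-loaded transferrin, is reduced and moved out of the endosome, and goes mostly to the mitochondria for heme. Spare iron is stored in ferritin or exported. IRP1 (ACO1) and IRP2 (IREB2) adjust this balance after transcription: in iron-poor cells they bind hairpins called iron responsive elements, which blocks translation where the hairpin is in the 5′ UTR (ferritins, ferroportin) and stabilises the mRNA where hairpins are in the 3′ UTR (transferrin receptor). RNA levels, the only readout here, therefore cover a part of this control.

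The hairpins of the genes on the list are shown because they are the sites at which the iron regulatory proteins bind these mRNAs. They were read from GRCh37 (hg19) by a search for a C, 5 stem bases, the loop CAGTGN and 5 bases that pair with the stem (G-T pairs allowed). Each is printed 5′ to 3′ on the strand of the gene as 30 bases, with the bulged C and the loop in capitals. FTL and FTH1 have the same loop apart from its last base, and the stretch from the bulged C on is nearly the same in the pair.

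FTL, 5′ UTR, chr19:49468592-49468621, plus strand: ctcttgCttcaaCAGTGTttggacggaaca

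FTH1, 5′ UTR, chr11:61735045-61735074, minus strand: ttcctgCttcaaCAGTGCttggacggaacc

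SLC40A1, 5′ UTR, chr2:190445386-190445415, minus strand: caacttCagctaCAGTGTtagctaagtttg

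TFRC, 3′ UTR, chr3:195777849-195777878, minus strand: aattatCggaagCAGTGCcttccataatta

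TFRC, 3′ UTR, chr3:195777445-195777474, minus strand: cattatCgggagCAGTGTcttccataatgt

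TFRC, 3′ UTR, chr3:195777380-195777409, minus strand: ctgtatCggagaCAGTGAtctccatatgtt

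TFRC, 3′ UTR, chr3:195777333-195777362, minus strand: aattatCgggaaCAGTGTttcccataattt

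Of 19528 coding genes, 18 (0.0922%) held the pattern in the 5′ UTR of their canonical transcript and 121 (0.620%) in the 3′ UTR. The 5′ UTR holders include 3 genes of the list and the 3′ UTR holders include 1. The other 6 genes held no match to these letters in the UTRs of their canonical transcripts. Other transcripts of SLC25A37 were searched, but any match in them was left out of the elements shown. The result says nothing of elements with other letters or imperfect stems, such as the known element of SLC11A2. The SLC40A1 element lies in 1 of its 5 coding transcripts, the FTH1 element in 7 of 8 and the TFRC elements in 10 of 11. The deposited values are per gene, so transcripts with and without an element cannot be told apart.

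Before the results, the labels were checked. HBE1, the embryonic β-like globin gene next to HS2, was at 1376.35 and 1619.66 TPM in the sgGal4 libraries and between 361.31 and 1019.30 TPM in the 8 HS2 libraries, with a mean log2 difference of -1.29 ± 0.102 (SE, limma, adjusted p = 1.05e-05). The genes of the effectors did not follow the labels: KDM1A, which encodes LSD1, was at 84.17 and 104.70 TPM in the libraries labelled L and between 25.21 and 33.51 TPM in all others, including LK and KL. ZNF10, the source of the KRAB domain, was at most 3.8 TPM in the libraries labelled sgGal4 and K, 31.47 and 36.83 in LK, 128.32 and 135.68 in L and 359.86 and 364.95 in KL. Groups are therefore called by their labels throughout, and a direction given for a group is that of the libraries so labelled. The erythroid markers were read in all libraries, with 11 of 12 above 0 and a sum of 2222 to 4970 TPM. GATA1, the defining erythroid factor, was listed at 0 in all 10 libraries, which may be a failed estimate.

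The libraries differed in the share of TPM taken by the 13 mitochondrial genes, from 39.9% to 53.6%. The highest share was that of sgGal4 replicate 1, against 43.7% in sgGal4 replicate 2. The depth of the libraries is unknown, since TPM keeps no read number. Log2(TPM + 1) of replicates correlated at 0.951 to 0.964 across genes, which are not independent.

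The genes of the list spanned 3 orders of magnitude. FTL had a mean of 5710 TPM over the 10 libraries and ranked 14 among all listed genes, and FTH1 had 1665 TPM and ranked 37. They were followed by TFRC (221 TPM), SLC25A37 (85.2 TPM), IREB2 (37.7 TPM), SLC40A1 (26.2 TPM), SLC11A2 (21.6 TPM), STEAP3 (11.8 TPM) and ACO1 (4.66 TPM). HMOX1 was listed at 0 throughout.

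Against sgGal4, FTL was lower and SLC40A1 higher in all 8 HS2 libraries, and SLC25A37 was lower in all 8, so that 3 of 9 tested genes had all HS2 libraries on one side of both controls, as did 11.8% of all tested genes. Over the mean of the 4 HS2 groups, 2 of the 9 tested genes passed an adjusted p of 0.05 beside 3.26% of all tested genes, and of these 1 was higher (background 1.78%) and 1 lower (1.48%). The median log2 difference of the 9 genes was -0.07, beside 0.03 for all tested genes. In the single groups, 0 of 9 passed for K (background 1.62%), 1 for L (0.869%), 1 for LK (2%) and 2 for KL (1.36%). For K, 2 genes had an unadjusted p under 0.05 by limma, a threshold for which no share of all genes is given. A test across the 5 groups passed for 1 of 9 genes, FTL, beside 1.82% of all genes. With any of these 6 tests counted, 3 of 9 genes passed, beside 4.41% of all genes. The comparisons share the sgGal4 libraries, so their values are not independent of each other.

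**Figure D1:**
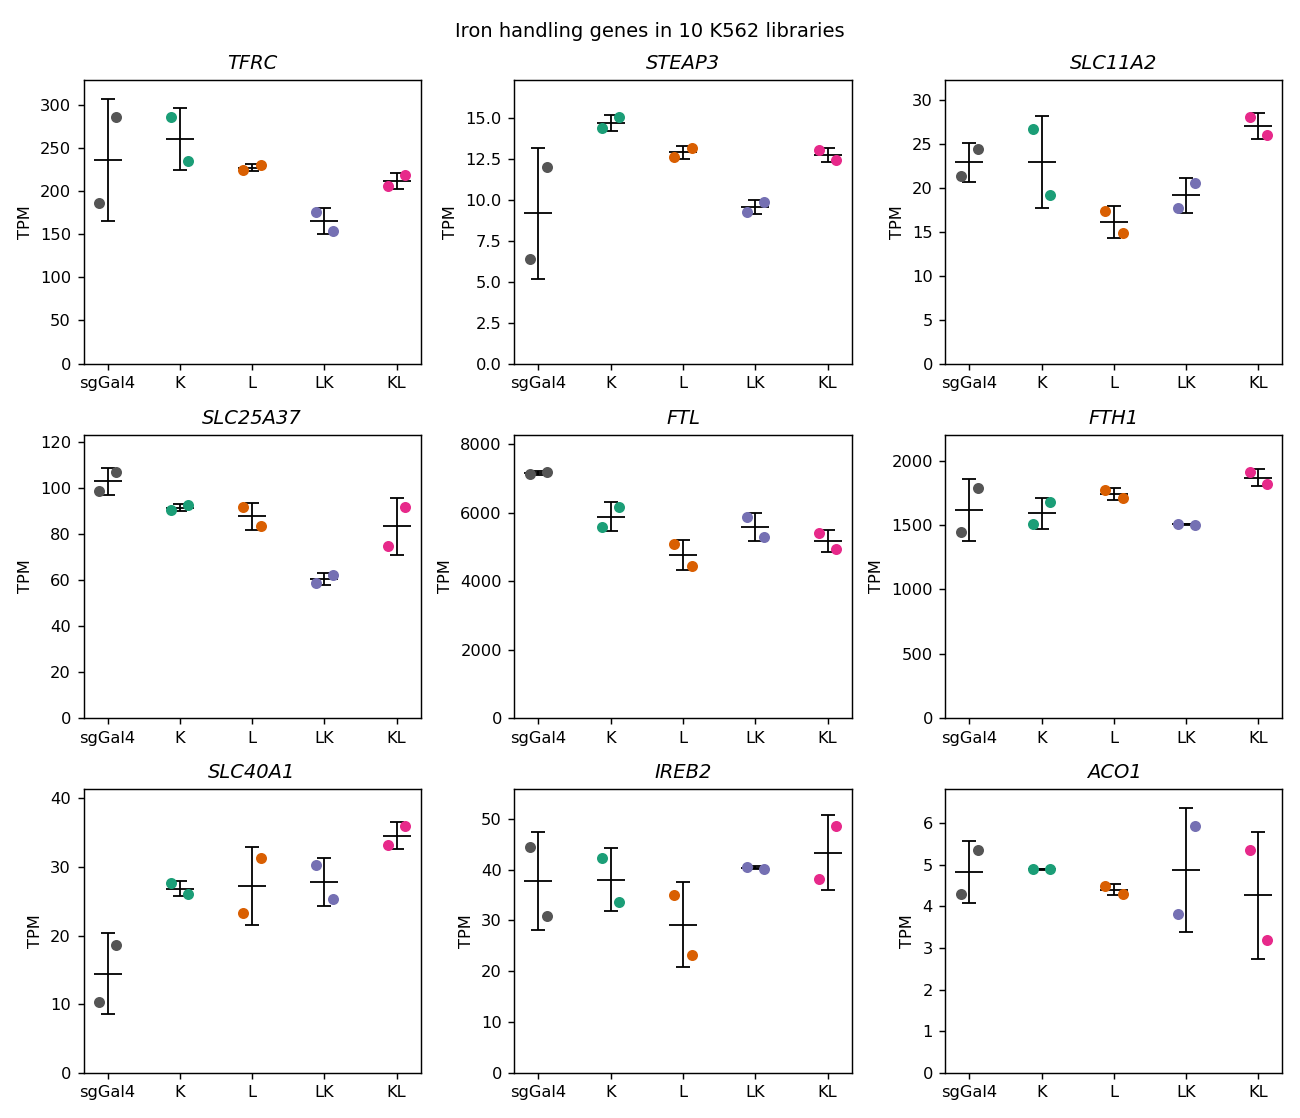
TPM of the 9 tested iron handling genes (y axis, from 0) in the libraries labelled sgGal4, K, L, LK and KL; each point is a library, the long bar the mean and the whiskers the SD of 2 libraries. FTL lies lower and SLC40A1 higher in all 8 HS2 libraries than in the 2 sgGal4 libraries, and the TFRC, SLC40A1 and STEAP3 values of the sgGal4 libraries lie far apart.

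Storage. FTL encodes the light chain of ferritin, which helps to mineralise iron in the ferritin shell, and lies at chr19:49468566-49470136 on the plus strand in 4 exons. It was at 7120.58 and 7198.93 TPM in the sgGal4 libraries, 5579.90 and 6174.27 in K, 5072.04 and 4446.03 in L, 5874.96 and 5286.10 in LK, and 5394.29 and 4952.33 in KL. All 8 HS2 libraries were below both sgGal4 libraries, a position held by 5.29% of all tested genes. FTL fell by 0.43 ± 0.0780 on the log2 scale over the mean of the HS2 groups (SE, limma with Benjamini-Hochberg adjustment, adjusted p = 0.00868), to 74.4% of sgGal4. The group means were 7160 ± 55.4 TPM for sgGal4, 5877 ± 420 for K, 5581 ± 416 for LK, 5173 ± 313 for KL and 4759 ± 443 for L (SD, n = 2 each). Neighbours in this order did not pass the test against each other.

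By group, FTL fell by 0.59 in L (SE 0.0986, limma adjusted p = 0.0121) and by 0.47 in KL (adjusted p = 0.0278). The log2 differences of -0.36 in LK and -0.29 in K had adjusted p-values of 0.0856 and 0.167. The test across the 5 groups gave an adjusted p of 0.0314, a call that held in 4 of 8 processing alternatives and in 2 of 10 fits without a library (adjusted p up to 0.109). The call over the mean of the HS2 groups held without each of the 10 libraries in turn (adjusted p from 0.0102 to 0.0370), and the log2 difference was -0.53 after removal of the mitochondrial genes and rescaling. Fits with no filter on low genes (limma adjusted p = 0.0866) and with no variance trend (adjusted p = 0.259) ended the call. So did quantile normalization, with a log2 difference of -0.04 (adjusted p = 0.905), 0.23 in K and 0 in LK. That method gives all libraries the same set of values, so a gene near rank 14 changes only by changing rank. Its result is therefore no measure of how far FTL fell. The L call was lost without L replicate 2 (adjusted p = 0.166), and that in KL was lost without sgGal4 replicate 1, LK replicate 1 or either KL library (adjusted p from 0.0506 to 0.276).

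FTH1 encodes the ferritin heavy chain, which oxidises iron as it enters the shell, and lies at chr11:61727190-61735106 on the minus strand. Its libraries were at 1449.10 and 1787.06 TPM in sgGal4, 1506.78 and 1678.41 in K, 1776.04 and 1708.33 in L, 1506.76 and 1503.36 in LK, and 1915.54 and 1822.46 in KL. The HS2 libraries lay on either side of sgGal4, with KL above both control libraries and the others overlapping them. The mean log2 difference was 0.05 (95% interval -0.14 to 0.25, limma adjusted p = 0.823), so an average change as large as that of FTL lies outside the interval of this fit. KL was at 116% of sgGal4 (adjusted p = 0.412). The sign of the mean difference turned in 3 of 18 alternatives, in which it reached -0.22. In LK the log2 difference of FTH1 reached -0.39 and passed the test in 1 of 19 alternatives.

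Because FTL fell and FTH1 gave no call in the main fit, the ratio of the chains was computed in each library, as a description with no test. FTL over FTH1 was 4.91 and 4.03 in sgGal4, 3.70 and 3.68 in K, 3.90 and 3.52 in LK, 2.82 and 2.72 in KL, and 2.86 and 2.60 in L. The ratio was higher in both sgGal4 libraries than in any HS2 library, and the L and KL libraries lay below all others. The sum of both transcripts went from 8778 ± 294 TPM in sgGal4 to between 6501 ± 491 TPM (L) and 7470 ± 542 TPM (K) in the HS2 groups (SD, n = 2). The authors kept reads with a single place in the genome. Of the 75-base windows of the FTH1 transcript, 33.7% occur elsewhere in the genome, at 13 other loci, and of the FTL transcript 11.7%, at 2 other loci, so the level of FTH1 relative to FTL is uncertain. The part of these copies in the differences between groups was not tested.

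**Figure D2:**
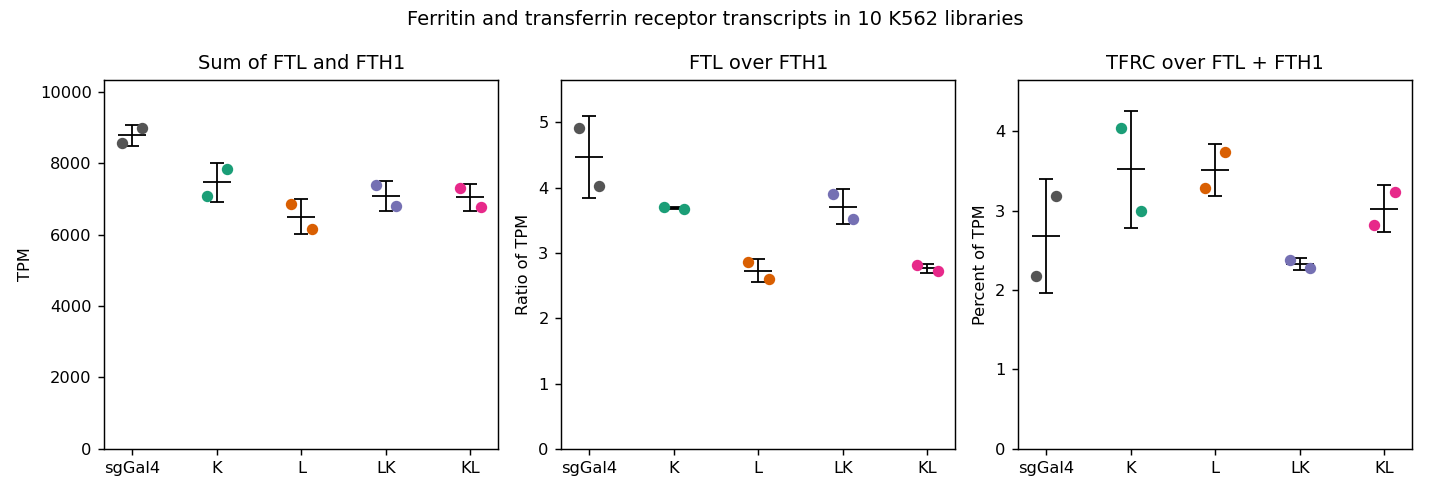
Sum of FTL and FTH1 in TPM (left), FTL divided by FTH1 (middle) and TFRC as a percent of the ferritin sum (right) in each library of the 5 groups; points are libraries, bars the mean and whiskers the SD of 2 libraries. The ferritin sum and the ratio of the chains were highest in the sgGal4 libraries, and the ratio was lowest in L and KL.

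Export. SLC40A1 encodes ferroportin, the iron exporter of the plasma membrane, and lies at chr2:190425316-190448484 on the minus strand. It was at 10.33 and 18.61 TPM in sgGal4, 27.62 and 26.11 in K, 23.26 and 31.28 in L, 30.33 and 25.33 in LK, and 33.19 and 35.95 in KL. All 8 HS2 libraries lay above both controls, as did 6.53% of all tested genes. Over the mean of the HS2 groups, SLC40A1 rose by 1.00 ± 0.225 on the log2 scale (SE, limma adjusted p = 0.0271), to 200% of sgGal4. In KL it rose by 1.25 ± 0.284 (adjusted p = 0.0449). The log2 differences of 0.90 in K, 0.91 in L and 0.95 in LK had adjusted p-values of 0.135, 0.175 and 0.126, and the 4 HS2 groups did not pass the test against each other.

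The SLC40A1 values of the sgGal4 libraries lie far apart, and the lower is that of sgGal4 replicate 1, which has the highest mitochondrial share. Without that library the log2 difference was 0.61 (adjusted p = 0.323), and without sgGal4 replicate 2 it was 1.40 (adjusted p = 0.0110). With the mitochondrial genes removed and the rest rescaled, it was 0.91 (adjusted p = 0.0236). Leaving out L replicate 2, LK replicate 1 or KL replicate 2 also ended the call, with adjusted p-values of 0.0517, 0.0593 and 0.0518, as did fits with no filter (0.0820) and no variance trend (0.100). The KL call was lost in 9 of 10 fits without a library, all but that without sgGal4 replicate 2, with adjusted p up to 0.250.

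FTL and SLC40A1, which both carry an element in the 5′ UTR (that of SLC40A1 in 1 of 5 coding transcripts), moved in opposite directions. FTH1, with an element almost like that of FTL, gave no call in the main fit. Elements in the 5′ UTR act on translation, which RNA levels do not show, and their part in these differences was not tested. Over the 10 libraries the log2 values of FTL and SLC40A1 had a Pearson correlation of -0.74, which the difference between sgGal4 and the HS2 libraries enters.

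Markers of other cells were read beside these values, since FTL and SLC40A1 are abundant in macrophages. Of 6 monocyte and macrophage markers, 4 were above 0 in some library, with CD163 and CSF1R at 0 in all 10, CD14 at a mean of 0.199 TPM and CD68, a lysosomal protein of many cell types, at 22.3 TPM. Their sum was 35.0 to 42.9 TPM in the sgGal4 libraries and 13.5 to 33.4 TPM in the HS2 libraries. Of 5 T cell markers, CD3E, CD4 and CD8A were at 0 throughout, and the sum of the other two was 27.3 to 34.9 TPM in sgGal4 and 2.33 to 28.8 TPM in the HS2 libraries. Of 5 epithelial markers, chosen for the kidney line often used to package lentivirus, 4 were above 0 (PAX2 at 0), with 285 to 378 TPM in sgGal4 and 201 to 319 TPM in the HS2 libraries. The means over the 10 libraries were 120 TPM for KRT18, 102 for KRT8, 45.3 for EPCAM and 2.1 for LHX1. Markers of megakaryocytes (3 of 5 above 0), B cells (2 of 4) and fibroblasts (3 of 5) summed to at most 6.31, 0.490 and 4.25 TPM in any library. The part of these markers in the results was not tested. In bulk RNA, fewer cells of a type and less RNA per cell cannot be told apart.

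Uptake. TFRC encodes the transferrin receptor, which carries iron-loaded transferrin into the cell, and lies at chr3:195739382-195809024 on the minus strand. It was at 186.54 and 286.32 TPM in sgGal4, 286.44 and 235.73 in K, 224.74 and 230.43 in L, 175.89 and 154.37 in LK, and 205.84 and 218.97 in KL. The sgGal4 libraries spanned nearly the whole range, and only LK lay below both of them. LK was at 71.4% of sgGal4, with a log2 difference of -0.49 ± 0.186 that did not pass the test (SE, limma adjusted p = 0.245). Over the mean of the HS2 groups the log2 difference was -0.12 (95% interval -0.43 to 0.20). TFRC came to 2.68% ± 0.714 of the ferritin sum in sgGal4, 3.52% ± 0.735 in K, 3.51% ± 0.327 in L, 3.02% ± 0.294 in KL and 2.33% ± 0.0772 in LK (SD, n = 2), with the sgGal4 libraries overlapping all groups but L.

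STEAP3, the endosomal reductase that turns ferric into ferrous iron, lies at chr2:119981407-120023228 on the plus strand. Its values were 6.36 and 12 TPM in sgGal4, 14.37 and 15.07 in K, 12.63 and 13.19 in L, 9.24 and 9.87 in LK, and 13.07 and 12.44 in KL. K, L and KL lay above both controls and LK between them. The mean log2 difference of 0.45 had a 95% interval of -0.10 to 0.99 and an adjusted p of 0.396 by limma. It was 0.04 without sgGal4 replicate 1.

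SLC11A2 encodes DMT1, which moves ferrous iron out of the endosome, and lies at chr12:51373184-51422349 on the minus strand. It was at 21.35 and 24.44 TPM in sgGal4, 26.65 and 19.21 in K, 17.41 and 14.81 in L, 17.75 and 20.58 in LK, and 28.08 and 26.04 in KL. L and LK lay below both controls and KL above them, and the mean log2 difference was -0.13 (95% interval -0.56 to 0.31, limma adjusted p = 0.817). KL was at 164% of L, the widest distance between HS2 groups for this gene (adjusted p = 0.370).

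SLC25A37 encodes mitoferrin, the iron importer of the inner mitochondrial membrane in erythroid cells, and lies at chr8:23386469-23432976 on the plus strand. It was at 98.82 and 107.14 TPM in sgGal4, 90.46 and 92.59 in K, 91.78 and 83.53 in L, 58.52 and 62.37 in LK, and 74.65 and 91.96 in KL. All 8 HS2 libraries lay below both controls, as did 5.29% of all tested genes, and the LK libraries lay below all others. SLC25A37 fell by 0.76 ± 0.174 on the log2 scale in LK (SE, limma adjusted p = 0.0411), to 59.1% of sgGal4. The mean over the HS2 groups, -0.37 (95% interval -0.66 to -0.07), did not pass (adjusted p = 0.185). The LK call was lost without any one of the 10 libraries, with adjusted p-values from 0.0519 to 0.263, while its log2 difference stayed between -0.82 and -0.70.

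**Figure D3:**
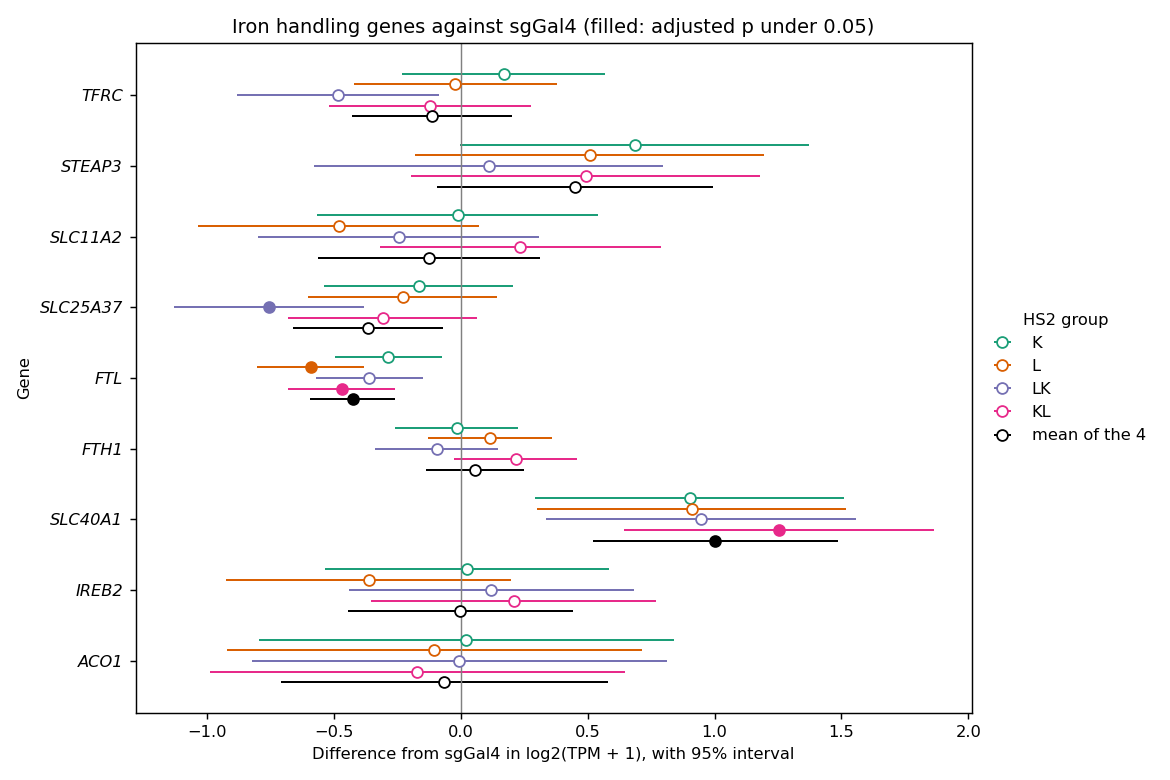
Difference from sgGal4 in log2(TPM + 1) (x axis) for each tested iron handling gene (y axis) in the libraries labelled K, L, LK and KL and in the mean of the 4; lines are 95% intervals of the limma fit without adjustment, and filled points passed an adjusted p of 0.05. Filled points are at FTL (L, KL and the mean, all below 0), SLC40A1 (KL and the mean, above 0) and SLC25A37 (LK, below 0).

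Heme turnover. HMOX1, the inducible heme oxygenase that releases iron from heme, lies at chr22:35776354-35790207 on the plus strand and was listed at 0 in all 10 libraries. None of the 75-base windows of its transcript occur elsewhere in the genome. Other genes in use in most cells, among them NCOA4 (the receptor that delivers ferritin to lysosomes) and TKT (a sugar-phosphate enzyme), were also listed at 0 throughout, so the HMOX1 value may be a failed estimate and no level or change is given. HMOX2, the constitutive enzyme, was chosen after its values were seen. It was at 16.68 and 22.55 TPM in sgGal4, 40.16 and 30.65 in K, 29.18 and 25.12 in L, 26.65 and 24.31 in LK, and 31.85 and 16.04 in KL, with 7 of 8 HS2 libraries above both controls and a mean log2 difference of 0.47 that did not pass (limma adjusted p = 0.354).

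Regulators. IREB2 (chr15:78729773-78793795, plus strand) encodes IRP2, which is degraded when iron is plentiful. It was at 44.49 and 30.88 TPM in sgGal4, 42.33 and 33.57 in K, 35.07 and 23.25 in L, 40.55 and 40.16 in LK, and 38.08 and 48.53 in KL. Every HS2 group overlapped the controls. The mean log2 difference was -0.00 (95% interval -0.45 to 0.44, limma adjusted p = 0.996).

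ACO1 (chr9:32384601-32454767, plus strand) encodes IRP1, which is a cytosolic aconitase while it holds an iron-sulfur cluster. It was at 4.31 and 5.36 TPM in sgGal4, 4.90 and 4.89 in K, 4.50 and 4.31 in L, 3.83 and 5.93 in LK, and 5.35 and 3.19 in KL. Every HS2 group overlapped the controls here too, and the mean log2 difference was -0.07 (95% interval -0.71 to 0.58, limma adjusted p = 0.945). RNA levels of IREB2 and ACO1 say nothing of the RNA binding of their proteins.

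The study asked whether dual effectors act more strongly than single ones at HS2. For the iron genes, LK and KL together were compared with K and L together. By limma 0 of 9 genes passed at an adjusted p of 0.05, beside 0.0889% of all genes. An unadjusted p under 0.05 was reached by 2 of 9, and no share of all genes is given for that threshold. TFRC was 0.38 lower on the log2 scale in the dual groups (limma adjusted p = 0.507), with all 4 dual libraries, 154.37 to 218.97 TPM, below all 4 single ones, 224.74 to 286.44 TPM. This is 1 of 9 genes without overlap between dual and single libraries, beside 3.33% of all tested genes. For SLC25A37 the log2 difference was -0.33 (adjusted p = 0.547), with overlapping libraries. FTL was at 101.7% in the dual relative to the single groups (95% interval of the log2 difference -0.13 to 0.17). In the 6 comparisons between pairs of HS2 groups, 0 of 9 genes passed by limma (0.642% of all genes passed in at least 1 pair). Between 0 and 3 had an unadjusted p under 0.05, again with no share of all genes given.

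A wider list of 73 iron and heme genes was read beside these. Of its symbols 71 are listed in the files, 49 entered the tests and 8 were at 0 in all libraries, NCOA4 among them. By limma, 1 of 49 passed over the mean of the HS2 groups (2.04%, beside 3.26% of all genes), with a median log2 difference of 0.04 beside 0.03 for all genes. In any of the 6 tests 3 of 49 passed, beside 4.41% of all genes. For 5 of the 49 (10.2%), all 8 HS2 libraries lay on one side of both controls, beside 11.8% of all tested genes. By role, the tested genes were 8 of 17 for import and trafficking, 5 of 9 for storage and chaperones, 2 of 10 for export and systemic control, 15 of 15 for mitochondrial iron and iron-sulfur clusters, 7 of 10 for heme transport and turnover and 12 of 12 regulators.

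CISD1 encodes mitoNEET, an iron-sulfur protein of the outer mitochondrial membrane. It was at 28.93 and 28.23 TPM in sgGal4 and between 39.97 and 55.64 TPM in the HS2 libraries. All 8 lay above both controls, as for 6.53% of all tested genes. CISD1 rose by 0.72 ± 0.172 on the log2 scale over the mean (SE, limma adjusted p = 0.0363) and by 0.90 in LK (adjusted p = 0.0492). The call over the mean held in 3 of 10 fits without a library, and that in LK in 2 of 10 and in 2 of 9 processing alternatives.

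HIF1A, a subunit of the hypoxia-inducible factor, was at 34.31 and 34.26 TPM in sgGal4 and between 13.22 and 25.67 TPM in the HS2 libraries. All 8 lay below both controls, as for 5.29% of all tested genes. HIF1A fell by 1.14 ± 0.253 in KL (SE, limma adjusted p = 0.0409), and the mean log2 difference of -0.74 had an adjusted p of 0.0609. The KL call held in 2 of 10 fits without a library.

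EPAS1 encodes HIF-2α, a hypoxia-inducible subunit whose mRNA also carries an iron responsive element. It was at 6.84 and 11.01 TPM in sgGal4, 14.94 and 8 in K, 3.55 and 2.28 in L, 14.21 and 7.55 in LK, and 2.57 and 1.23 in KL. The L and KL libraries lay below all others, the same groups that had the lowest FTL over FTH1 ratios, and the test across the 5 groups passed (limma adjusted p = 0.0391). It held in 1 of 10 fits without a library.

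Of 18 targets of NRF2 and BACH1, which act on antioxidant response elements shared with HMOX1, FTL and FTH1, 15 entered the tests and 1 passed over the mean of the HS2 groups (6.67%, beside 3.26% of all genes). The gene was SLC7A11, the cystine transporter, at 7.70 and 10.44 TPM in sgGal4 and between 1.66 and 4.01 TPM in the HS2 libraries. SLC7A11 fell by 1.67 ± 0.309 on the log2 scale (SE, limma adjusted p = 0.00959). By group it fell by 1.80 in K (adjusted p = 0.0370) and by 1.87 in LK (adjusted p = 0.0259), and the log2 differences of -1.78 in L and -1.22 in KL had adjusted p-values of 0.0509 and 0.15. The median log2 difference of the 15 genes was 0.01. Without either sgGal4 library the call over the mean was lost, with adjusted p up to 0.104. Leaving out 1 library ended the K call in 8 of 10 fits and the LK call in 4 of 10.

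**Figure D4:**
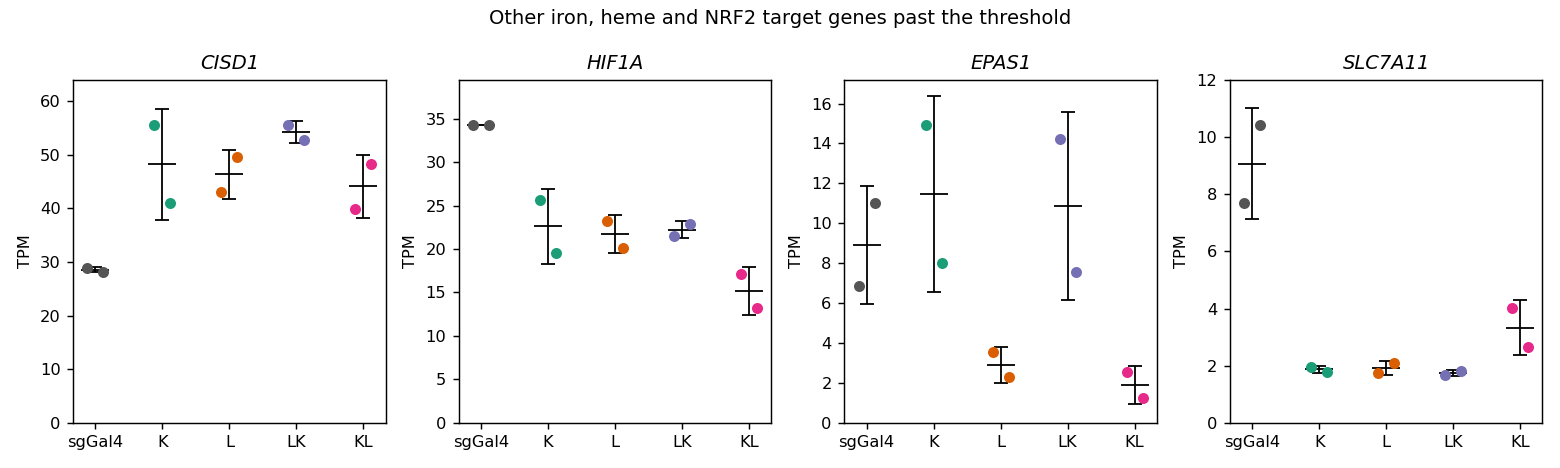
TPM (y axis, from 0) of the 4 genes of the wider iron list and the NRF2 target list that passed a test, in each library labelled sgGal4, K, L, LK and KL; points are libraries, bars the mean and whiskers the SD of 2 libraries. CISD1 is higher and HIF1A and SLC7A11 are lower in all 8 HS2 libraries than in sgGal4, and EPAS1 is lowest in L and KL.

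The tested genes whose log2 values followed FTL most closely over the 10 libraries were ALDOA (Pearson r = 0.93), a glycolytic enzyme, TRDN (0.92), a calcium-store protein of muscle, and TFPI (0.90), an inhibitor of coagulation. ALDOA was at a mean of 1381 TPM in sgGal4 and 1068 TPM in the HS2 libraries, TRDN at 4.38 and 1.42 TPM, and TFPI at 341 and 155 TPM. The likeness is a description, and the difference between the same control and HS2 libraries enters it. That difference passed the test for ALDOA (limma adjusted p = 0.0419) and TFPI (adjusted p = 0.00019) and not for TRDN (adjusted p = 0.0654).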

How the data were processed

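RNA-seq was analysed in 10 K562 libraries, 2 for each of 5 groups, with groups and replicate numbers taken from the labels. The authors aligned reads to hg19 with STAR 2.5.2b, discarded reads that map to several places, and used RSEM for the deposited TPM values. TPM is relative to all transcripts of a library, so a change in abundant transcripts moves all others, and it keeps no depth, so the precision from read number is unknown. The library kit differs between the labels (poly(A) selection, directional) and the methods (Ovation). The read length is not given in the sources used here.

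The authors compared groups with DESeq2, which needs counts and was not run here. Instead, log2(TPM + 1) of the 10127 genes with a mean TPM of at least 1 was fitted in limma 3.58.1 (R 4.3.3), all 5 groups together with 5 residual degrees of freedom, a trend of variance with level, and p-values adjusted over all tested genes by Benjamini-Hochberg, with a threshold of 0.05. Fold changes on the log2(TPM + 1) scale understate those of low genes. The fitting code was tested on simulated data with known changes. Positions and UTRs came from GENCODE mapped to GRCh37, and sequence from that genome (Python 3.11.15). Shared sequence was counted in windows of 50, 75 and 100 bases.

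The genes and lists were chosen with earlier results of these data known. Named in the text are the 10 genes, every gene of the 2 lists past the threshold against sgGal4 or across groups, the 3 genes most like FTL, and the label checks. HMOX2, ALAS2, cell type markers and genes listed at 0 were added outside this rule. The replicate numbers did not pair the libraries. Alternatives were a pseudocount of 0.1, no filter, a filter at 10 TPM, median-of-ratios size factors, quantile normalization, removal of mitochondrial genes, no trend, only the groups compared, a replicate block and leaving out each library.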

Additional observations from a re-analysis of the deposited data

How the results depend on the processing

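Counts of iron handling genes passing the limma test (of 9) moved as follows. Against 1 across the 5 groups, 1 in L, 1 in LK, 2 in KL and 2 over the mean of the HS2 groups, and 3 of the wider iron list, no filter and no variance trend each gave 0 for all 6. At an unadjusted p under 0.05 the 5 counts of the iron handling genes were 3, 2, 4, 3 and 3 with no filter and 1, 2, 2, 1 and 2 with no trend. No share of all genes is given for these counts. Size factors gave 0 across groups, 0 in L and 1 in KL. Quantile normalization gave 0 across groups, 0 in L, 2 in LK, 1 in KL and 1 over the mean. Removal of mitochondrial genes gave 3 in LK. Over all genes, LK had 201 calls with quantile normalization and 244 without mitochondrial genes, beside 203 in the main fit. The fit of only the groups compared gave 0 in L, LK and KL. A pseudocount of 0.1 gave 1 in KL. The filter at 10 TPM gave 0 of the NRF2 and BACH1 targets, because SLC7A11, at a mean of 3.58 TPM, no longer entered the tests. ACO1 (4.66 TPM) and EPAS1 (7.22 TPM) also left them, so the count out of 9 does not apply there. Replicate numbers did not pair the libraries (correlations of deviations from -0.0213 to 0.0229 over 10 pairs of groups). With the replicate block, the counts were 0 in LK, 1 in KL and 1 of the wider list. Leaving out each library gave 0 to 1 across groups, in K, in L and in LK, 0 to 2 in KL, 1 to 2 over the mean, 0 to 2 of the wider list and 0 to 2 of the NRF2 list, and 0 to 0 for dual against single effectors and between HS2 groups.

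The FTL call over the mean held in 5 of 8 processing alternatives and that of SLC40A1 in 6 of 8, each lost with no filter and no trend, and no call changed direction. Those of FTL in L and in KL, and of SLC40A1 in KL, each held in 4 of 9. The cause was not tested. Counts over all genes moved by more than 1.5 times: over the mean, 330 genes became 185 with no filter, 99 with no trend and 89 without sgGal4 replicate 1. In K, 164 became 14 with no trend and 9 without K replicate 2. In L, 88 ranged from 16 (without L replicate 2) to 151 (quantile normalization). In LK, 203 became 15 with no trend, and in KL, 138 became 45 without KL replicate 2. Across groups, 184 became 39 with no trend, and for dual against single effectors 9 ranged from 3 to 15. Of the genes called over the mean, 54.5% were higher, beside 35.4% without mitochondrial genes, 31.3% with no trend, 38.2% without sgGal4 replicate 1 and 78.3% without sgGal4 replicate 2. The median of all genes shifted to -0.11 without sgGal4 replicate 1 and 0.16 without replicate 2.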

Other observations

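ALAS2, the erythroid enzyme of the first step of heme synthesis and a holder of the iron responsive element pattern in its 5′ UTR, was named after its values were seen. It was at 33.30 and 35.13 TPM in sgGal4, 64.93 and 50.53 in K, 50.53 and 55.67 in L, 39.05 and 38.16 in LK, and 46.01 and 44.18 in KL. All 8 HS2 libraries lay above both controls, as did 6.53% of all tested genes. The mean log2 difference of 0.48 did not pass the test (limma adjusted p = 0.134).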
